A study of Homo sapiens with 8 samples.

Results

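Keratins of simple epithelia were followed as 7 genes among the 57736 Ensembl genes listed for each library: KRT18, KRT8, KRT19, KRT20, KRT7, KRT23 and KRT80. They were picked by name, with their pseudogenes set apart, after KRT18 had been seen to fall with doxycycline in the WiNTRLINC1 line, and the question was whether its partner KRT8 and the other keratins fell with it. Values of the 7 keratins in that contrast, and in the difference between the lines that contains it, are therefore descriptions without p-values, and counts of keratins called there are given only beside the share over all genes. All 7 genes passed the filter on low values, which asked for 10 or more in 2 or more libraries.

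The cells were derivatives of LS174T, an established human colon adenocarcinoma line, overexpressing the Tet repressor. One derivative carried an inducible hairpin RNA (shRNA) targeting ASCL2, which encodes a stem cell transcription factor of the gut, and the other an inducible shRNA targeting the non-coding transcript WiNTRLINC1. The groups, with 2 libraries each, were the ASCL2 line grown for 3 days with 1 µg/ml doxycycline, the ASCL2 line grown for 3 days without it, the WiNTRLINC1 line with doxycycline, and the WiNTRLINC1 line without it. Per the series' design text the WiNTRLINC1 line came from clones screened for knockdown, and every group carried a hairpin construct. Effects of doxycycline itself and of the induced hairpin cannot be told apart. Groups follow the sample titles. The genotype label of every sample names the other target. The labels do not say that replicates were separate cultures, so the spread behind each p-value is that between these samples and may be technical. In bulk RNA, fewer cells of a type and less RNA per cell cannot be told apart.

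Keratins form the intermediate filaments of epithelial cells. A filament is built from pairs of an acidic type I and a basic type II chain, and a chain without a partner is degraded. KRT8 (type II) and KRT18 (type I) are the first pair of simple epithelia, made in nearly every gland and gut cell. KRT19 is a further type I partner of KRT8, and KRT20 marks the differentiated cells of the gut surface.

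Deposited values were whole numbers that looked like scaled read counts, with totals of 21524463 to 22941231 per library. The factor is not given, so these totals are not sequencing depths, and 2 libraries per group limit the precision. The 7 keratins together held between 0.383% and 0.902% of a library's total. All 7 colon epithelial marker genes looked for (CDX2, VIL1, EPCAM, CDH1, CDH17, LGALS4 and GPA33) had a value of at least 10 in every library. Their summed value was 31193 to 31513 in treated and 48484 to 50674 in untreated ASCL2 libraries, and 35979 to 36881 in treated and 39226 to 40424 in untreated WiNTRLINC1 libraries. Summed fibroblast, immune and endothelial markers stayed at or under 300, 94 and 33 in any library. COL1A2, CD3E, CD68 and KDR stayed under 10 in all 8 libraries. By contrast, 2 of 5 fibroblast and 1 of 5 immune markers had at least 10 in every library. Of 4 endothelial markers 3 were listed, and 0 had at least 10 in every library. Fibroblast markers summed to 183 to 193 in treated and 299 to 300 in untreated ASCL2 libraries. In the WiNTRLINC1 line they summed to 92 to 132 in treated and 88 to 105 in untreated libraries. ASCL2 itself fell in both lines by limma with Benjamini-Hochberg adjustment (adjusted p = 3.93e-09 for ASCL2 knockdown and 3.46e-07 in the WiNTRLINC1 line). Its value was 532 and 586 in treated and 2855 and 3373 in untreated ASCL2 libraries, and 805 and 697 in treated and 2540 and 2034 in untreated WiNTRLINC1 libraries.

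In the WiNTRLINC1 line the type I chain KRT18 was far lower with doxycycline while its partner was not. KRT18 (ENSG00000111057, chromosome 12) had values of 8197 and 7734 in the treated libraries, against 38977 and 36188 in the untreated ones. Both treated libraries lay far below both untreated libraries, a 4.72-fold lower level (log2 fold change -2.24 ± 0.0901 SE, n = 2 per group). Its type II partner KRT8 (ENSG00000170421, chromosome 12) had 65606 and 63926 in the treated libraries, against 67554 and 64546 in the untreated ones. The treated and untreated values of KRT8 overlapped, and the log2 fold change was -0.03 ± 0.0836 SE. The lower level of KRT18 was thus not shared by KRT8 in these 4 libraries.

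KRT19 (ENSG00000171345, chromosome 17), the alternative type I partner, was higher in the treated WiNTRLINC1 libraries, with values of 12496 and 12934, against 8582 and 7924 in the untreated ones. The groups did not overlap, and the log2 fold change was 0.62 ± 0.0934 SE. KRT20 (ENSG00000171431, chromosome 17) had 181 and 242 in treated and 124 and 154 in untreated libraries, again without overlap but with a wide spread within both groups (0.60 ± 0.18 SE). Without the second treated library the log2 fold change of KRT20 was 0.39. KRT80 (ENSG00000167767, chromosome 12), a type II keratin found at the margins of many epithelial cells, had 634 and 620 in treated and 435 and 456 in untreated libraries (0.49 ± 0.137 SE). Both treated libraries of KRT80 were above both untreated ones.

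The 2 remaining keratins had low values. KRT7 (ENSG00000135480, chromosome 12), a type II keratin of ducts and bladder lining that is low in normal colon, had 64 and 65 in treated and 44 and 48 in untreated WiNTRLINC1 libraries (0.48 ± 0.26 SE). KRT23 (ENSG00000108244, chromosome 17), a type I keratin, had 7 and 8 in treated and 9 and 15 in untreated libraries (-0.58 ± 0.432 SE). Its SE was large beside the difference. With a Benjamini-Hochberg threshold of 0.05, limma called 4 of the 7 keratins, against 18.6% of all 22100 genes tested. KRT19, KRT20 and KRT80 were called as higher (9.54% of all genes) and KRT18 as lower (9.03%). Treated and untreated libraries did not overlap for 6 of the 7 (54.8% of all genes), 4 of them higher (28.2%) and 2 lower (26.5%). Since KRT18 was chosen on this contrast, nothing is read from these counts.

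**Figure D1:**
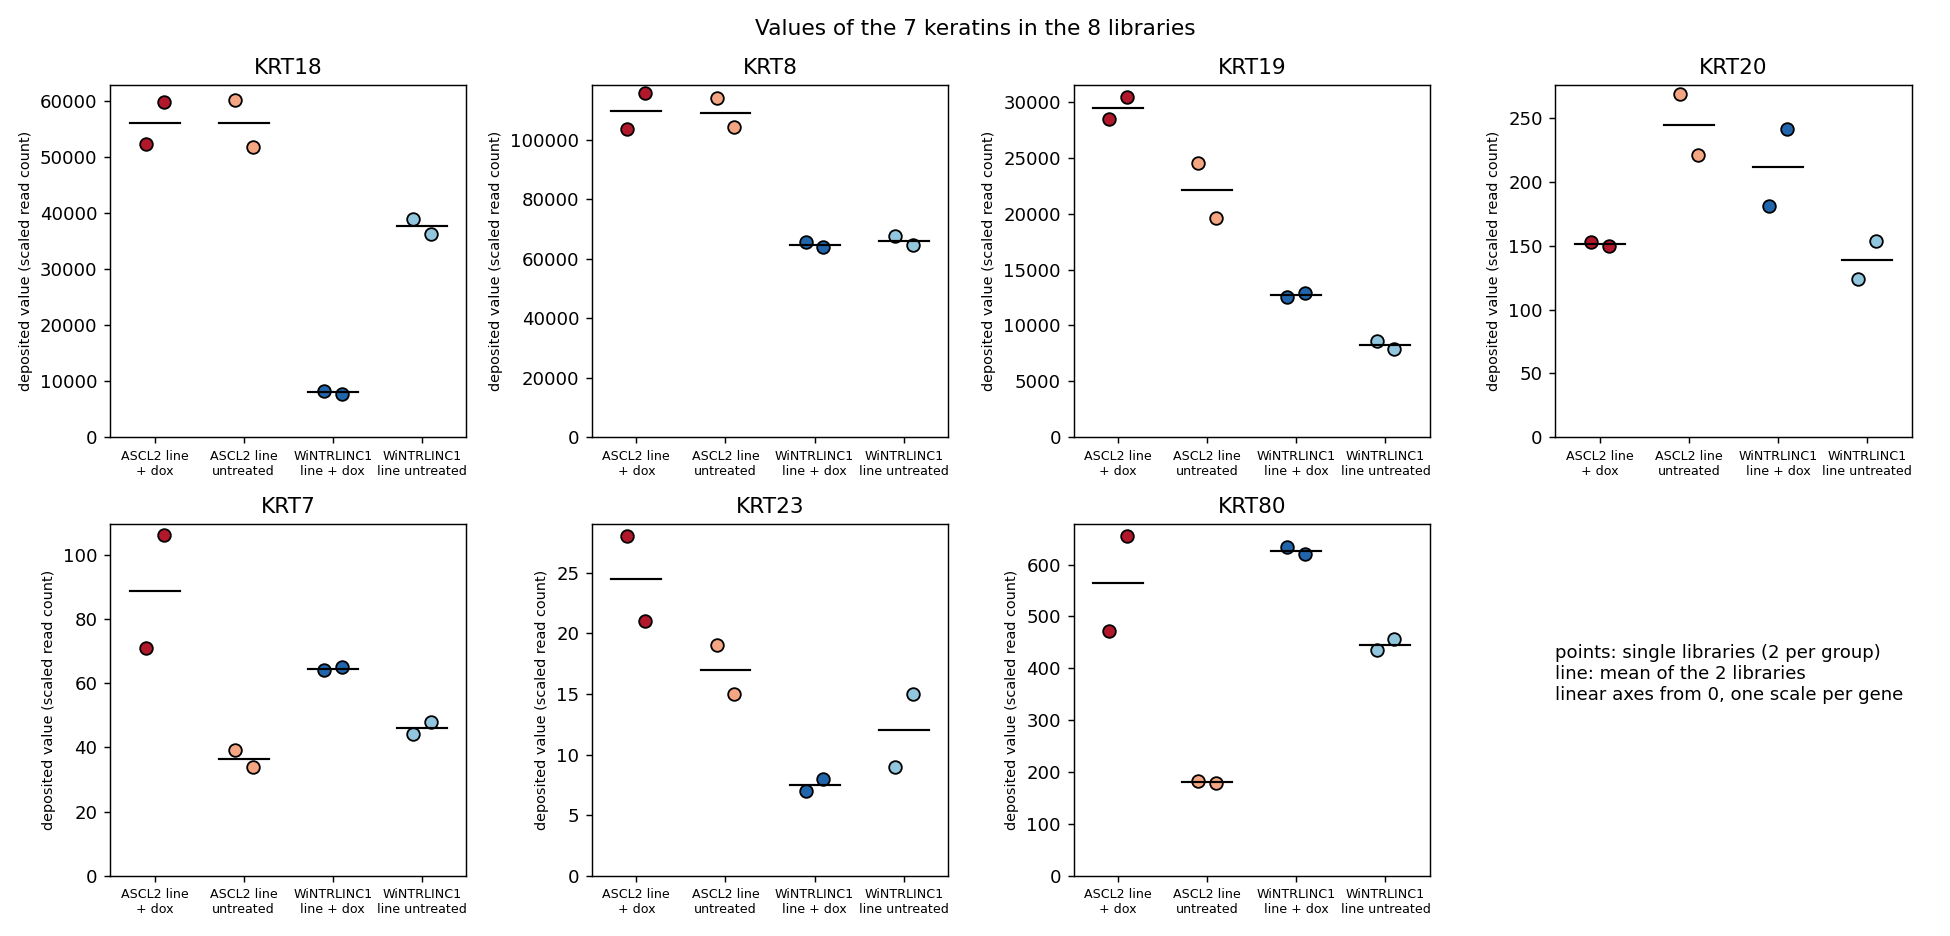
Deposited value (scaled read count, linear axis from 0, 1 scale per gene) of each keratin in the 4 groups; points are single libraries and the line is the mean of 2. KRT18 sits at 8197 and 7734 in the treated WiNTRLINC1 libraries and at 36188 or more in every other library, while KRT8 differs between the lines but not visibly with doxycycline.

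In the ASCL2 line no change of KRT18 or KRT8 passed the test, while KRT80, KRT7 and KRT19 rose and KRT20 fell. KRT18 had 52219 and 59706 in the treated ASCL2 libraries, against 60191 and 51706 in the untreated ones. KRT8 had 103822 and 115955 in the treated libraries, against 114236 and 104293 in the untreated ones. For both genes the treated and untreated values overlapped. The log2 fold change was 0.00 for KRT18 (95% interval -0.191 to 0.194, limma with Benjamini-Hochberg adjusted p = 0.997) and 0.01 for KRT8 (-0.171 to 0.186, adjusted p = 0.962).

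KRT80 rose the most, to 472 and 655 in the treated ASCL2 libraries, against 182 and 179 in the untreated ones. This was 3.07-fold (log2 fold change 1.62 ± 0.137 SE, limma with Benjamini-Hochberg adjusted p = 9.11e-07), and both treated libraries stood well apart from both untreated ones although they differed between themselves. KRT7 rose 2.35-fold, to 71 and 106 in the treated libraries, against 39 and 34 in the untreated ones (1.23 ± 0.26 SE, limma with Benjamini-Hochberg adjusted p = 0.00267). Without the second treated library, where KRT7 was higher, the change was 0.94 and missed the threshold (adjusted p = 0.0538, the highest of 17 alternative settings, with the lowest at 0.00193).

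KRT19 rose 1.34-fold, to 28469 and 30408 in the treated ASCL2 libraries, against 24576 and 19633 in the untreated ones (0.42 ± 0.0934 SE, limma with Benjamini-Hochberg adjusted p = 0.00371). The groups did not overlap, but without the second untreated library, the lower one, the change was 0.26 and missed the threshold (adjusted p = 0.0595, in a range of 0.000678 to 0.0854 over 17 settings). KRT20 fell 1.61-fold, to 153 and 150 in the treated libraries, against 269 and 221 in the untreated ones (-0.68 ± 0.18 SE, limma with Benjamini-Hochberg adjusted p = 0.011). Its call was kept in 12 of 17 settings (adjusted p between 0.0071 and 0.106). It was lost without the first untreated library (log2 fold change -0.54, adjusted p = 0.106) and without the first or the second treated library (adjusted p = 0.0552 and 0.0677). KRT23 had 28 and 21 in treated and 19 and 15 in untreated libraries, a difference that did not pass (0.50 ± 0.432 SE, limma with Benjamini-Hochberg adjusted p = 0.444).

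Limma thus called 4 of the 7 keratins in the ASCL2 line, against 26.6% of all genes tested, with 3 higher (13.9% of all genes) and 1 lower (12.7%). The groups did not overlap for 5 of the 7 (60.6% of all genes), 4 of them higher (30.8%) and 1 lower (29.8%). The median log2 fold change over the 7 was 0.422, against 0.006 over all genes. The summed colon epithelial markers given above were lower in the treated than in the untreated libraries of this line, and their part in these changes was not tested.

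**Figure D2:**
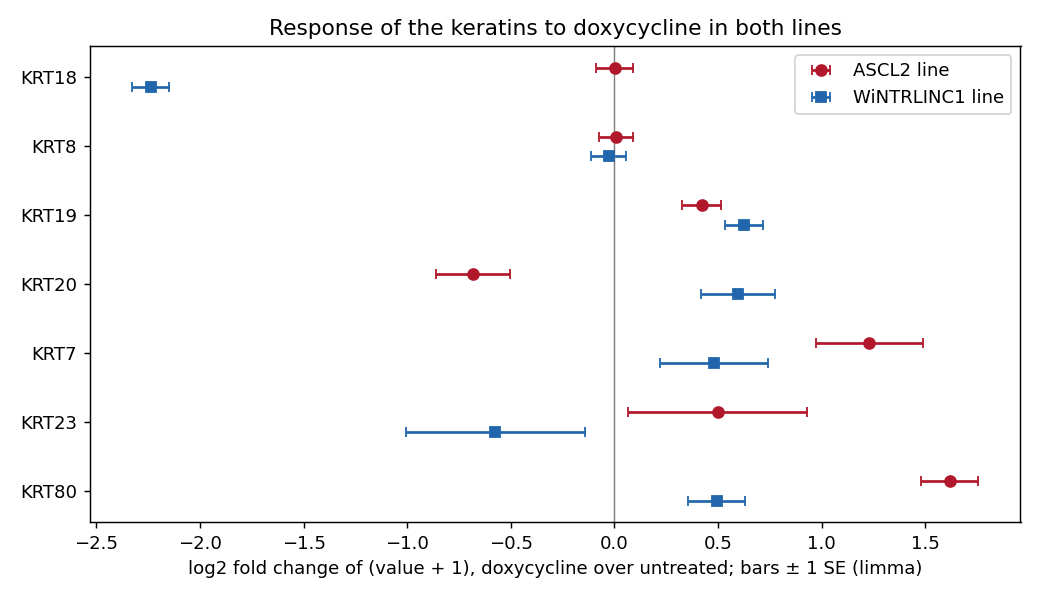
Log2 fold change (of value + 1) of each keratin with doxycycline, treated over untreated, in the ASCL2 line (circles) and the WiNTRLINC1 line (squares); bars are 1 SE from limma. KRT18 lies at -2.24 in the WiNTRLINC1 line and at 0.00 in the ASCL2 line, KRT8 lies near 0 in both, and KRT20 lies on opposite sides of 0.

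Side by side, the lines differed in KRT18, KRT20 and KRT80. The response of KRT18 in the WiNTRLINC1 line minus that in the ASCL2 line was -2.24 ± 0.127 (SE) on the log2 scale. KRT20 differed by 1.28 ± 0.254, with both treated WiNTRLINC1 libraries higher and both treated ASCL2 libraries lower than their untreated counterparts. For KRT80 the difference was -1.13 ± 0.194, so its gain was smaller in the WiNTRLINC1 line. KRT19 differed by 0.20 ± 0.132 and KRT8 by -0.04 ± 0.118. The values of KRT7 (-0.75 ± 0.368) and KRT23 (-1.07 ± 0.611) came with wide errors. Limma called 3 of the 7, KRT20 as higher (7.39% of all genes) and KRT18 and KRT80 as lower (7.6%), against 15% in either direction, and these values are descriptions because they contain the contrast that chose KRT18.

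Ratios within a library are altered by no scaling between libraries. Each ratio below contains KRT18, which was chosen for its fall in the WiNTRLINC1 line. The ratios there therefore describe that fall beside the other keratins and are no further support for it. There were 8.0 and 8.27 KRT8 values per KRT18 value in the treated WiNTRLINC1 libraries, against 1.73 and 1.78 in the untreated ones. In the ASCL2 line the ratio was 1.99 and 1.94 in treated and 1.9 and 2.02 in untreated libraries. So 6 of 8 libraries lay between 1.73 and 2.02 and the treated WiNTRLINC1 libraries alone lay near 8. Summed per kilobase of coding length, type I chains (KRT18, KRT19, KRT20 and KRT23) amounted to 0.391 and 0.402 of type II chains (KRT8, KRT7 and KRT80) in the treated WiNTRLINC1 libraries, against 0.844 and 0.819 in the untreated ones. In the ASCL2 line this ratio was 0.945 and 0.942 in treated and 0.902 and 0.83 in untreated libraries. KRT18 and KRT19 together had values of 20693 and 20668 in treated and 47559 and 44112 in untreated WiNTRLINC1 libraries, so the higher KRT19 value made up only a small part of the missing KRT18. These are RNA levels, and no protein was measured.

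**Figure D3:**
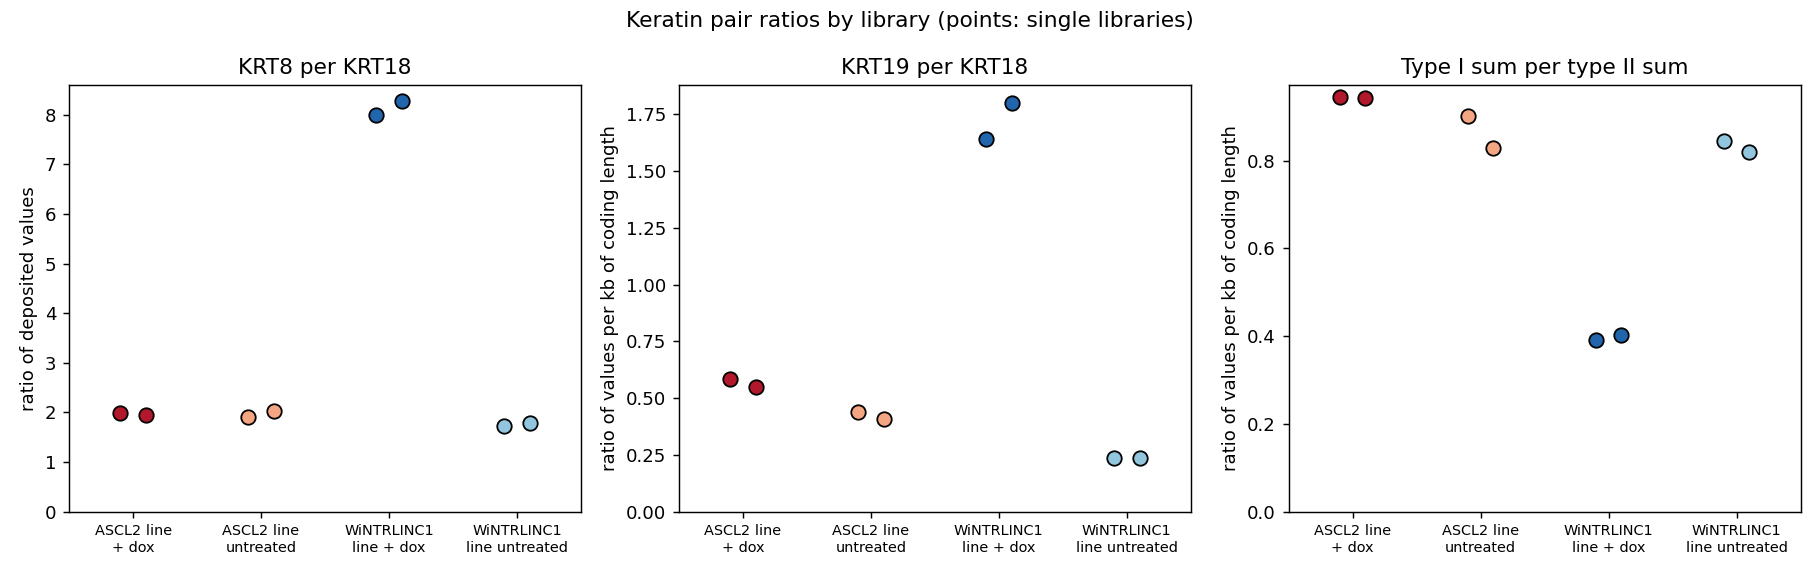
Ratio of KRT8 to KRT18 (deposited values), of KRT19 to KRT18 and of the type I to the type II sum (both per kb of coding length) in each library, linear axes from 0. In all 3 panels the treated WiNTRLINC1 libraries stand apart from the other 6, at 8.0 and 8.27, at 1.64 and 1.8, and at 0.391 and 0.402. Each ratio contains KRT18, which was chosen for its fall in that line, so the panels are descriptions.

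Levels of different keratins were compared per kilobase of coding length. KRT8 came first in all 4 groups, at 71700 ± 5600 in treated and 71300 ± 4590 in untreated ASCL2 libraries, and at 42200 ± 775 in treated and 43100 ± 1390 in untreated WiNTRLINC1 libraries (mean ± SD, n = 2 throughout). KRT18 came second in the treated (43400 ± 4100) and untreated (43400 ± 4650) ASCL2 line. In the treated WiNTRLINC1 line it averaged 6170 ± 254, below KRT19 at 10600 ± 258. In the untreated WiNTRLINC1 line it was second, at 29100 ± 1530, above KRT19 at 6880 ± 388. Per kilobase of all annotated exons, KRT18 again lay below KRT19 only in the treated WiNTRLINC1 line. The lead of KRT8 over KRT18 depended on the length used: per exon length KRT18 averaged 17400 ± 1650 and KRT8 16000 ± 1250 in the treated ASCL2 line, where the spreads overlapped, and 11700 ± 613 and 9600 ± 309 in the untreated WiNTRLINC1 line.

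The other 4 keratins were far lower per kilobase of coding length, and KRT8, KRT18 and KRT19 held 98.91% to 99.75% of the summed value of the 7 in every library. KRT80 led them at 416 ± 95.4 in the treated ASCL2 line, 462 ± 7.3 in the treated WiNTRLINC1 line and 329 ± 11.0 in the untreated WiNTRLINC1 line. In the untreated ASCL2 line KRT20 led at 193 ± 26.7, with KRT80 at 133 ± 1.56. KRT7 came after both, between 62.9 ± 17.6 in the treated ASCL2 line and 25.9 ± 2.51 in the untreated ASCL2 line. KRT23 was last in every group, between 19.4 ± 3.91 in the treated ASCL2 line and 5.92 ± 0.559 in the treated WiNTRLINC1 line.

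**Figure D4:**
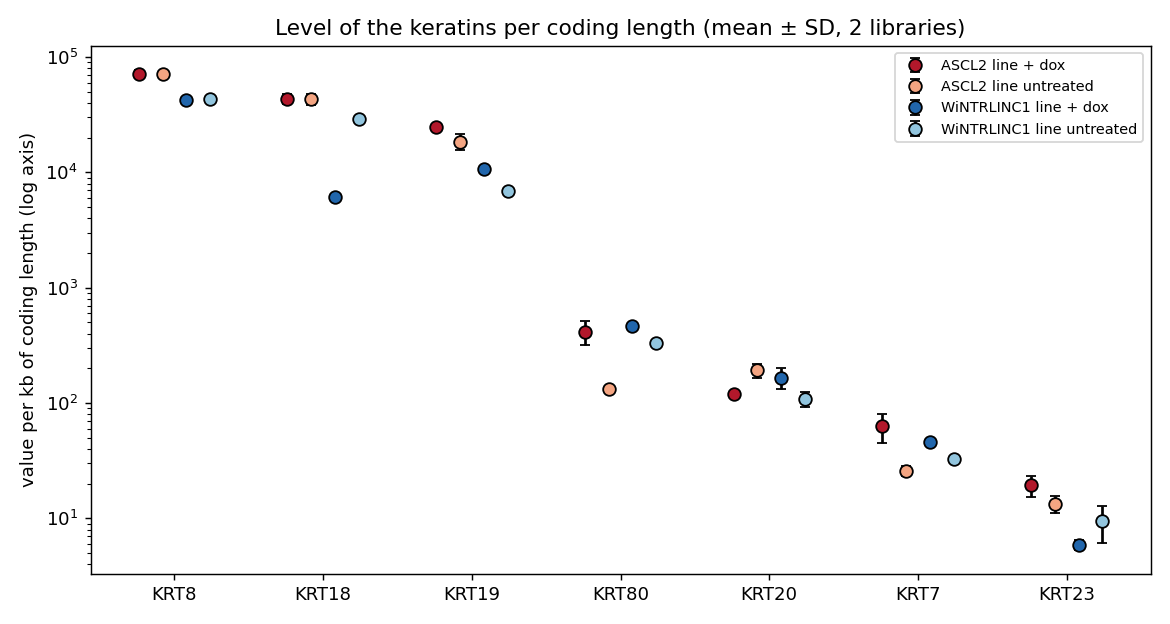
Value per kb of coding length (log axis) of the 7 keratins in the 4 groups, mean ± SD of 2 libraries. KRT8, KRT18 and KRT19 lie above 6000 in every group, the other 4 lie below 500, and KRT18 drops under KRT19 in the treated WiNTRLINC1 line (6170 against 10600).

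The untreated lines also differed in their keratins. KRT19 was 2.66-fold lower in the untreated WiNTRLINC1 line than in the untreated ASCL2 line (log2 difference -1.41 ± 0.0934 SE, limma with Benjamini-Hochberg adjusted p = 1.05e-08). KRT8 was 1.65-fold lower (-0.73 ± 0.0836, adjusted p = 3.52e-06) and KRT20 1.76-fold lower (-0.81 ± 0.18, adjusted p = 0.00135), both by limma with Benjamini-Hochberg adjustment. KRT80 was 2.46-fold higher (1.30 ± 0.137, limma with Benjamini-Hochberg adjusted p = 1.45e-06). KRT7 (0.33 ± 0.26, adjusted p = 0.304) and KRT23 (-0.50 ± 0.432, adjusted p = 0.346) did not pass limma's test with Benjamini-Hochberg adjustment. KRT18 was 1.49-fold lower (-0.57 ± 0.0901), which is a description because the same untreated libraries entered the contrast that chose it. Limma called 5 of 7 keratins here, KRT18 included, against 55.2% of all genes, with 1 higher (25.7% of all genes) and 4 lower (29.5%). The groups did not overlap for 6 of 7 keratins (75.7% of all genes), 2 of them higher (35.7%) and 4 lower (40%). Untreated libraries of each line are also the controls of its doxycycline response.

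KRT18 and KRT8 have many processed pseudogenes, copies of the spliced transcript elsewhere in the genome, so a read can match several copies. KRT18 pseudogenes were aligned to KRT18 by the best local match of GENCODE 29 transcripts. Of these, 47 had a mean value of at least 10 in the untreated WiNTRLINC1 line. They matched KRT18 at 84.8% to 95.9% of aligned bases, gaps not counted, with a median of 91.8%. The aligned stretch covered between 35.2% and 88.3% of the KRT18 transcript.

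In the WiNTRLINC1 line the pseudogenes of KRT18 were lower together with their parent. Summed over 67 KRT18 pseudogenes the value was 1806 and 1827 in treated and 8297 and 7447 in untreated WiNTRLINC1 libraries. This amounted to 22.0% and 23.6% of the KRT18 value in treated and 21.3% and 20.6% in untreated libraries. Within the ASCL2 line the share was 22.4% and 21.4% in treated and 19.7% and 16.7% in untreated libraries. Of 59 tested KRT18 pseudogenes limma called 50 as lower and 0 as higher in the WiNTRLINC1 line, with a median log2 fold change of -2.04, beside 9.03% and 9.54% of all genes called as lower and higher and a median of 0.007 over all genes. These are near copies of the gene that was chosen on this contrast, and reads shared between them were not separated, so nothing further is read from the count. Examples were KRT18P17 at -2.14, KRT18P16 at -2.20, KRT18P25 at -2.36 and KRT18P48 at -2.03. In the ASCL2 line limma called 2 of 59 as higher and 0 as lower, beside 13.9% and 12.7% of all genes.

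KRT8 pseudogenes summed to 16701 and 16137 in treated and 16649 and 15193 in untreated WiNTRLINC1 libraries. Treated and untreated values thus overlapped there, as they did for KRT8. In the ASCL2 line they summed to 25952 and 25855 in treated and 24544 and 19860 in untreated libraries, without overlap, unlike KRT8. Over the tested ones the median log2 fold change in that line was 0.239, against 0.01 for KRT8 and 0.006 over all genes. Of 47 tested, limma with Benjamini-Hochberg adjustment called 0 in the WiNTRLINC1 line, with 3 at an unadjusted p under 0.05 and 18.6% of all genes called. It called 2 as higher in the ASCL2 line (13.9% of all genes), KRT8P12 at 0.57 and KRT8P13 at 0.36, while KRT8P45 (0.24) and KRT8P17 (0.42) did not pass there. Of 3 tested KRT19 pseudogenes, KRT19P1 was called as higher in both lines (0.79 with ASCL2 knockdown, 0.67 in the WiNTRLINC1 line), as was KRT19 itself, while KRT19P2 and KRT19P3 did not pass. All pseudogene values are uncertain, since the sources used here give neither the counting program nor its handling of shared reads. Adding each parent's pseudogenes to its value left a log2 change of KRT8 per KRT18 of 2.20 in the WiNTRLINC1 line, against 2.21 without them.

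**Figure D5:**
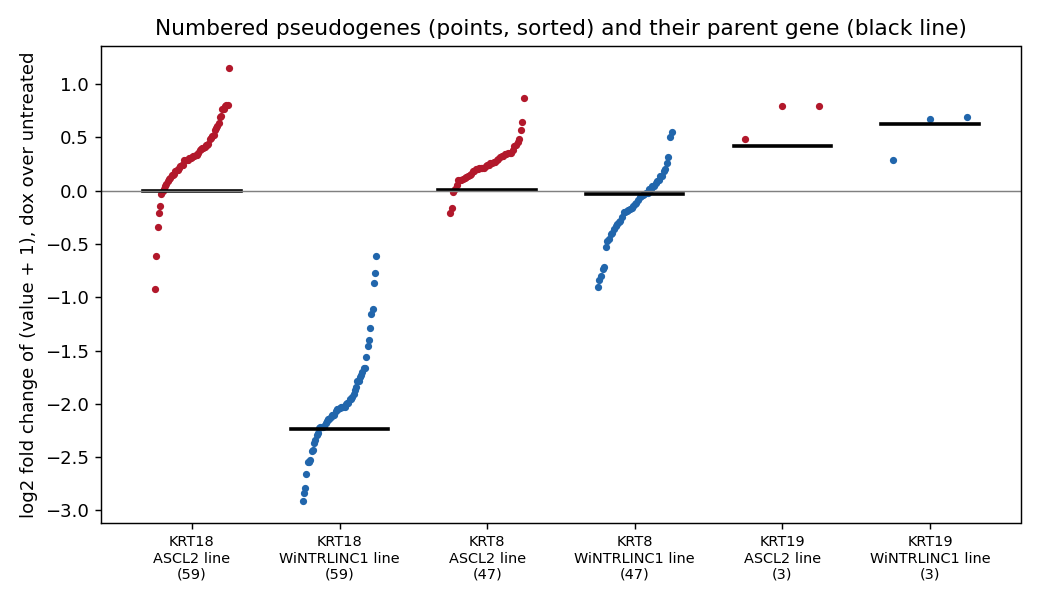
Log2 fold change (of value + 1), treated over untreated, of the tested pseudogenes of KRT18 (59), KRT8 (47) and KRT19 (3) in each line, sorted; the black line is the parent gene. KRT18 pseudogenes lie around their parent at -2.24 in the WiNTRLINC1 line, with a median of -2.04, and have a median of 0.317 in the ASCL2 line.

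KRT8 and KRT18 lie next to each other on chromosome 12, on opposite strands. In GENCODE 29 the annotated genes overlap by 1084 bases, 525 of them exonic in both, out of 3218 exonic bases of KRT18. Since the use of strand in counting is not given, reads in that overlap cannot be told apart. Of the 5 protein-coding genes on either side in the RefSeq order, 6 of 10 passed the filter. On the KRT18 side EIF4B, a translation initiation factor, fell in both lines (-0.39 in the ASCL2 line, -0.46 in the WiNTRLINC1 line), as did the focal adhesion protein TNS2 (-0.77 and -0.78). SPRYD3 rose by 0.31 in the ASCL2 line and changed by -0.56 in the WiNTRLINC1 line, where it fell. IGFBP6, which binds IGF ligands, rose in the WiNTRLINC1 line (0.90), at low values of 22 and 31 in treated and 13 and 14 in untreated libraries. SOAT2, next in order, was at or under 6 everywhere. On the KRT8 side the keratins KRT78, KRT79, KRT4, KRT3 and KRT76 had values under 20, except for KRT4 at 29 in the second treated WiNTRLINC1 library and for the second treated ASCL2 library, where KRT79, KRT4, KRT3 and KRT76 had 50, 37, 53 and 53.

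The RefSeq promoter table (GRCh38.p14) had an entry for 2 of the 7 keratins, KRT8 and KRT20, each running from 250 bases before to 50 after a start. The KRT8 entry lies inside the annotated span of the gene, and which start these cells use was not tested. The letters CAGCTG and CAGGTG (E-boxes), CTTTGA (a core of TCF sites), TGANTCA (AP-1) and GGGCGG (a GC box) were searched on both strands. They occur 0 times in the KRT8 window, and the KRT20 window holds 1 CAGGTG and none of the others. Of all 27305 promoters of that length, 17.7% hold CAGCTG, 20.6% CAGGTG, 13.1% CTTTGA, 7.76% TGANTCA and 44.6% GGGCGG.

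Among the other keratin genes, 48 in all, 25 stayed under 10 in every library and 15 were tested. In the ASCL2 line 3 of 15 rose and 0 fell, beside 13.9% and 12.7% of all genes called as higher and lower. The type I keratin KRT10, the best represented of them, rose to 945 and 1025 in the treated libraries, against 571 and 593 in the untreated ones (0.76, limma with Benjamini-Hochberg adjusted p = 0.000196). KRT6A (1.25) and KRT15 (0.76) also rose, but only just passed (limma with Benjamini-Hochberg adjusted p = 0.0448 and 0.0453). KRT6A had 36 and 21 in treated and 8 and 15 in untreated libraries. KRT15 had 56 and 86 in treated and 46 and 36 in untreated ones. In the WiNTRLINC1 line 1 of 15 rose and 0 fell, beside 9.54% called as higher. That gene was KRT13, with 54 and 68 in treated and 24 and 13 in untreated libraries (1.72, limma with Benjamini-Hochberg adjusted p = 0.00468), and KRT10 had 285 and 344 in treated and 322 and 305 in untreated libraries.

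Keratin filaments are anchored at desmosomes, cell contacts built of cadherins and plaque proteins. Of 18 tested desmosome and plakin genes, 5 were called as higher and 6 as lower in the ASCL2 line, beside 13.9% and 12.7% of all genes, with a median log2 fold change of -0.05. There plakoglobin (JUP), a plaque protein, fell to 4601 and 4506 in treated libraries, against 12290 and 10704 in untreated ones (-1.33, limma with Benjamini-Hochberg adjusted p = 4.54e-08), and the plakophilin PKP4 fell by 0.79, on the log2 scale as for all genes of the lists. The cadherin DSC2 rose by 0.70 and PLEC, the plectin that links keratin to other filaments, by 0.48. In the WiNTRLINC1 line 3 were higher and 2 lower (9.54% and 9.03% of all genes), with a median of 0.101. PLEC rose there by 0.51 and DSC2 by 0.27, JUP fell by 0.27, and PKP4 did not pass (0.06). Over the 18 tested genes the log2 fold change in this line ran from -1.492 to 0.505. The gene at the lower end is not among those named.

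Of 11 tested genes for other intermediate filament proteins, 0 were higher and 3 lower with doxycycline in the ASCL2 line (13.9% and 12.7% of all genes, list median -0.534). The WiNTRLINC1 line had 1 higher and 2 lower (9.54% and 9.03% of all genes, list median -0.279). The nuclear lamin LMNB1 fell to 2186 and 1949 in treated ASCL2 libraries, against 2984 and 2996 in untreated ones, and to 1608 and 1616 in treated WiNTRLINC1 libraries, against 4404 and 4718 in untreated ones. Its relative LMNB2 fell by 0.22 and 0.28. LMNA rose in the WiNTRLINC1 line (0.32), and the lens filament gene BFSP1 fell to 114 and 127 in treated ASCL2 libraries, against 235 and 249 in untreated ones. Keratin binding and modifying proteins numbered 14 tested, with 4 higher and 2 lower in the ASCL2 line, beside 13.9% and 12.7% of all genes, and a list median of -0.047. For the WiNTRLINC1 line 4 were higher and 1 lower, beside 9.54% and 9.03%, and the list median was 0.088. CASP6, a caspase that cuts KRT18, fell in the ASCL2 line (-0.90), as did the filament-binding TCHP (-0.59). DNAJB6, a chaperone that binds KRT18, rose in both lines (0.48 and 0.36).

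Of 22 tested epithelial transcription factors, 4 were higher and 7 lower in the ASCL2 line (13.9% and 12.7% of all genes, list median -0.1). With doxycycline in the WiNTRLINC1 line 3 were higher and 4 lower (9.54% and 9.03% of all genes, list median -0.025). The ETS factor EHF fell by 1.07 in the ASCL2 line and by 0.31 in the WiNTRLINC1 line. Its relative ELF3 fell to 434 and 452 in treated ASCL2 libraries, against 920 and 860 in untreated ones, and by 0.65 in the WiNTRLINC1 line, and the intestinal homeobox factor CDX2 by 0.76 and 0.35. KLF4, a factor of differentiating gut epithelium, rose by 0.26 in the ASCL2 line and by 1.01 in the WiNTRLINC1 line. Its values in the WiNTRLINC1 line were 1905 and 1822 in treated libraries, against 960 and 892 in untreated ones.

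Genes were also ranked by Pearson correlation with a keratin over the 8 libraries on the log2 scale. The ranking covered 8235 genes (8236 for KRT20) with a symbol and a mean value of at least 500. KRT18 pseudogenes were left out of it. The libraries share lines and treatments, so these values only describe the pattern. Among the genes most like KRT18 were DCTPP1 (r = 0.995), SEPTIN9 (0.994), TCF7 (0.993) and ARHGDIA (0.992). Nearest to KRT8 were SLC50A1 and RABAC1 (0.997 each), PMVK, RHBDD2 and LRP10 (0.996 each). For KRT20 the closest were RALA (0.968), HPS3 (0.962), STK26 (0.926), TMEM51 (0.925) and IL17RE (0.918). Among the keratins themselves the highest correlations were those of KRT8 with KRT19 (0.917), KRT18 with KRT23 (0.821), KRT7 with KRT80 (0.82) and KRT8 with KRT23 (0.814). The pair KRT8 and KRT18 had 0.748, and KRT18 with KRT80 had -0.536.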

How the data were processed

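Each library came with 1 deposited value per Ensembl gene. The authors deposited these as whole numbers, treated here as a score: low whole numbers were missing or over-used in 7 of 8 libraries, as in read counts multiplied by a factor and rounded. The submitters' processing notes list DESeq, Cufflinks, TopHat2 2.0.9 and cutadapt as tools, and GRCh37, hg19 and mm9 as builds, with no role. The sources used here do not say how reads were counted or scaled. Symbols matched 39501 of 57736 identifiers.

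Values were tested with limma 3.58.1 (R 4.3.3) (trended variance, pseudocount 1 on the log2 scale) over 8 libraries in 4 groups. The 22100 genes tested reached 10 in 2 or more libraries, and p-values were Benjamini-Hochberg adjusted over all of them. The procedure was tested on simulated data. Fold changes understate changes of low genes. Members and lists were chosen with earlier results of these data known. Named genes were the 7 keratins, ASCL2, up to 4 genes per list with the smallest adjusted p, all neighbours, and the 5 genes most like KRT18, KRT8 and KRT20. Y-linked pseudogenes are not named, and some named genes and sequences are not reported here. Gene lengths came from GENCODE 29 (GRCh38), so no gene coordinates are printed. Pseudogene transcripts were aligned with Biopython 1.88. Alternatives covered pseudocount, filter, scaling, trend, replicate block, lines fitted alone, pseudogene sums and leaving out each library.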

Additional observations from a re-analysis of the deposited data

Results flagged for a closer look

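Genes whose response to doxycycline differed between the lines (WiNTRLINC1 line minus ASCL2 line, log2 scale) by limma's test of the difference are listed here with that difference. Among keratins these were KRT18 (-2.24), KRT20 (1.28), KRT80 (-1.13), KRT10 (-0.76), KRT13 (2.35) and KRT15 (-1.23). For KRT18, KRT20 and KRT80 the values are descriptions, since the difference contains the contrast that chose KRT18. Of all genes tested, limma called 15% for this difference in either direction. The KRT18 pseudogenes KRT18P48 (-2.26), KRT18P16 (-2.72), KRT18P17 (-2.39) and KRT18P25 (-2.67) had negative differences, as did their parent. They are near copies of the chosen gene and shared reads were not separated, so their values are descriptions too. The knockdown check ASCL2 differed by 0.87. Desmosome genes were JUP (1.07), PKP4 (0.85) and DSC2 (-0.43), beside the lamin LMNB1 (-0.96), the caspase CASP6 (1.0) and the filament-binding TCHP (0.44). Epithelial factors were EHF (0.76), KLF4 (0.75) and CDX2 (0.4), and neighbours of the pair were SPRYD3 (-0.87) and IGFBP6 (1.36).

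Genes picked for a pattern like KRT18 or KRT20 share its difference by that choice. They were DCTPP1 (-1.05), SEPTIN9 (-1.2), TCF7 (-1.48) and ARHGDIA (-1.83) for KRT18, and RALA (0.61), HPS3 (0.67), STK26 (0.8), TMEM51 (0.81) and IL17RE (0.64) for KRT20.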

How the results depend on the processing

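In the fits tried, 0 keratins changed direction with a call. The count of keratins called was 4 in each line's response. Without the filter on low values it was 2 for the ASCL2 and 2 for the WiNTRLINC1 response. Calls over all genes were then 3926 and 2395, against 5884 and 4104 in the main fit. Without the mean-variance trend the keratin counts were also 2 and 2, beside 3410 and 1873 calls over all genes. KRT19 and KRT20 were lost in the ASCL2 line both times. For the difference between the lines the count of keratins called was 3, and 1 (KRT18) without the trend. Since KRT18 was chosen on the WiNTRLINC1 response, keratin counts for that response and for the difference are descriptions. A kept call of KRT18 there is no further support. Leaving out a library leaves no replicate in its group, so only log2 changes are given here. Without the second treated ASCL2 library they were 0.94 for KRT7 and -0.67 for KRT20, against 1.23 and -0.68 in the main fit. In the WiNTRLINC1 line without its first untreated library they were 0.44 for KRT20 and 0.46 for KRT80, against 0.60 and 0.49. Without its second untreated library the change of KRT80 was 0.53. Fitting the WiNTRLINC1 line alone gave 3 keratins called (KRT20 lost), beside 3483 calls over all genes, against 4104. With the replicate block the keratin counts were unchanged at 4 and 4, beside 5962 and 4182 calls over all genes. They were also unchanged at 3 and 5 for the difference and the untreated lines. Replicate numbers were not taken as pairs, since nothing in the labels says they are: the correlation of their deviations was -0.052 between the ASCL2 groups, and 0.105 between the WiNTRLINC1 groups (-0.193 and 0.445 over genes with a mean of at least 500, and 0.231 there between the untreated groups). Over all genes, calls ran from 3410 to 6129 in the ASCL2 line, from 1873 to 4278 in the WiNTRLINC1 line and from 1313 to 3513 for the difference, against 5884, 4104 and 3314. What depth limits cannot be given in reads, because the values look scaled by an unknown factor. KRT23 had the lowest values, 7 to 28. The cause of each lost call was not tested.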

Other observations

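The keratins outside the simple-epithelial set, leaving out KRT10, KRT75, KRT15 and KRT13, summed to 458 in the second treated ASCL2 library, against 196 to 246 in the other 7 libraries. KRT76, KRT3, KRT4 and KRT79, which lie together beside KRT8, contributed 53, 53, 37 and 50 there. Within that library's own group, the first treated ASCL2 library had 6, 9, 3 and 3.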
